A study of Mus musculus and Homo sapiens with 12 samples.

Results

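A dense cluster of H3K18bu regions is here a stretch of the CCD841 genome in which at least 10 regions of this histone mark lay close together. Regions were chosen by the H3K18bu lists alone. Overlapping peaks were merged, regions with a peak from both replicates were kept, regions separated by a gap of 12500 bp or less were stitched into sets, and sets of 10 or more regions were taken. Of 108536 H3K18bu regions of both replicates, 19175 (17.7%) were members of 1309 clusters, and these clusters were 3.19% of the 41007 stitched sets. Between them the clusters spanned 93.5 Mb, 3.18% of the 2938 Mb of sequenced bases in the genome. Most of them lay over or inside a protein-coding gene, and 281 clusters (21.5%) touched none. H4K12bu, which the choice of members did not use, covered 4.97% of the cluster spans against 1.31% of the other bases. Part of this excess follows from the choice of spans dense in H3K18bu, since H4K12bu also overlapped 33.3% of H3K18bu regions outside clusters. Among members that overlap was 39.3%.

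CUT&Tag maps a mark by an antibody that directs a transposase to the chromatin carrying it, so that DNA beside the mark is cut and can be sequenced. Butyrylation of lysine 18 of histone H3 (H3K18bu) and of lysine 12 of histone H4 (H4K12bu) places a longer acyl chain on residues that are better known as acetylation sites, and acyl marks of this kind are found at active promoters and enhancers. Acyltransferases such as p300 can use butyryl-CoA, which cells make from butyrate, the short-chain fatty acid that gut microbes release from fiber. Butyrate also inhibits histone deacetylases. Long stretches of closely spaced acetylated enhancers are known from many cell types, often at genes of cell identity, and 12500 bp is a gap in common use to group them.

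CCD841 is an established line from normal human colon that the labels call epithelial. The study asked where these marks lie in a normal line beside colorectal cancer cells. All 4 libraries used here came from CCD841 cells given 1 mM sodium butyrate (NaBu), for 12 h per the study's methods and 12 to 16 h per the labels, with 2 replicates for H3K18bu and 2 for H4K12bu. No library of untreated CCD841 cells and no acetyl library of this line was analysed here, so a cluster shows where the mark was found under NaBu and not what NaBu changed. The lists held 299720 and 299691 peaks for H3K18bu replicates 1 and 2, and 299445 and 299296 for H4K12bu. Read counts per library are not given in the sources used here. The median summit pileup, the number of read ends stacked at the peak, was 15 and 12 in the H3K18bu libraries and 15 and 7 in the H4K12bu libraries. H4K12bu replicate 2 thus stood apart: 25.0% of its peaks had q below 0.01, against 100% in each of the other 3, and the main comparisons with H4K12bu are also given for each replicate alone. Nothing in the labels says that replicates came from separate cultures.

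The DNA under the strongest member region is shown first for 4 of the clusters with the most regions, since each window carries the highest signal in a long run of the mark. Each line gives 300 bases of GRCh38 around the summit, plus strand. Capitals mark TGANTCA, the core that AP-1 (dimers of FOS and JUN proteins) is known to bind.
Cluster without a coding gene, chr2:128381180-128381479: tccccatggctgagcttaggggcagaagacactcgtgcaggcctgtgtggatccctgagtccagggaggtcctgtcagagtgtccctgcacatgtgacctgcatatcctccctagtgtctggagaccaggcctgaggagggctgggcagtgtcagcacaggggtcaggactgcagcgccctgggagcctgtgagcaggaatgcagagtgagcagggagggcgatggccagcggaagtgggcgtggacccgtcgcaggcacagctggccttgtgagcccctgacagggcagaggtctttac
GAS7, chr17:10107749-10108048: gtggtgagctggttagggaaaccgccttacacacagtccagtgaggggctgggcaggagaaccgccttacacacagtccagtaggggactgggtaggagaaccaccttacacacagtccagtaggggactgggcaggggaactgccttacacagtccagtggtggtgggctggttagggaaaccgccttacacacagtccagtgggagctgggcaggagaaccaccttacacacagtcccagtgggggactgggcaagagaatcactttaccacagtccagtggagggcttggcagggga
KSR1, chr17:27540419-27540718: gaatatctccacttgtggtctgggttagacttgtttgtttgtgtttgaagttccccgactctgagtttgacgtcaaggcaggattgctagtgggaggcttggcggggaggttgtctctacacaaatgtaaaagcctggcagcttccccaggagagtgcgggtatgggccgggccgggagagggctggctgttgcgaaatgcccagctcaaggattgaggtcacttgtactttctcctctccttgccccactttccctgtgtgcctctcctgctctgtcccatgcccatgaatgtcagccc
PRICKLE2, chr3:64238945-64239244: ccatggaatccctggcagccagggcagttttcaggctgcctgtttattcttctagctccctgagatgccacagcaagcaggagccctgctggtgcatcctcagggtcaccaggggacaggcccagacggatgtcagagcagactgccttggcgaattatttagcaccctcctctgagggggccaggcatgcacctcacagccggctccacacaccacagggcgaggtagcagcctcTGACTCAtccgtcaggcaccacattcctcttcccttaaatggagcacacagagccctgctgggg
The first window is intergenic and the other 3 are in introns of the named genes. A match to TGANTCA occurred in PRICKLE2. The GAS7 window is made of a repeated unit, and the run acacagtccagt occurred in it 5 times. The pileup of the 2 H3K18bu replicates was 79 and 71 in the chromosome 2 window, 75 and 51 in GAS7, 60 and 45 in KSR1, and 62 and 77 in PRICKLE2. All 4 regions also overlapped an H4K12bu region in each H4K12bu replicate. The H4K12bu pileup was 60 and 19 in the chromosome 2 window and 55 and 20 in PRICKLE2, above the other 2 windows in each replicate. It was 37 and 13 in GAS7 and 33 and 12 in KSR1.

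Clusters were long and mostly empty of peaks. The span ran from 25241 to 271500 bp with a median of 63615 bp, and the number of regions from 10 to 66 with a median of 13. Regions covered 9.75% of all cluster spans, and 4.54% to 20.0% of single spans. The median of the clusters' median gaps was 4686 bp, well under the 12500 bp allowed. The size distribution had no break at 10 regions: 381 sets held exactly 9 regions and 274 exactly 10. Sets of 9 had a median span of 43060 bp and a median covered share of 9.67%, against 49532 bp and 9.65% for sets of 10. At the other end, 19172 sets were a single region, and 186 clusters held 20 or more.

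**Figure D1:**
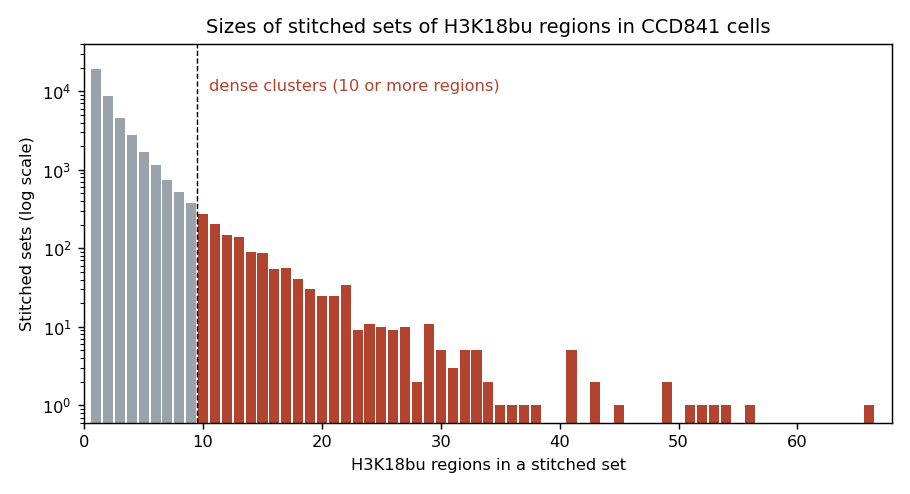
The number of stitched sets (log scale) is plotted against the number of H3K18bu regions in a set; red bars are the 1309 dense clusters of 10 or more regions and grey bars the smaller sets. The counts fall smoothly through the dashed limit, from 381 sets of 9 regions to 274 sets of 10, and the largest set holds 66.

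The cluster with the most regions, also the longest, held no protein-coding gene. It lay at chr2:128346487-128617986 with 66 regions, 27.6 kb from HS6ST1, a sulfotransferase of heparan sulfate synthesis. H3K18bu regions covered 13.1% of it in replicate 1 and 11.8% in replicate 2, while H4K12bu regions covered 4.42% and 3.74%. Just 16 of its 66 regions (24.2%) overlapped an H4K12bu region of both replicates, below the 39.3% over all members.

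SH3RF3, which codes for a RING-finger scaffold of JNK signalling, held all 54 regions of a cluster at chr2:109128008-109353192, counting the 1 kb before the gene. The cluster included the start site of SH3RF3. Here both marks were dense. H3K18bu covered 13.4% and 11.8% of the span in replicates 1 and 2, and H4K12bu covered 13.1% and 8.09%. Of its regions, 37 (68.5%) overlapped H4K12bu of both replicates. ARHGAP22, a GTPase-activating protein for Rac, was the other cluster among the 10 largest with most regions shared between the marks: 28 of 43 regions (65.1%) at chr10:48442159-48635826. H4K12bu covered 15.6% and 9.09% of the ARHGAP22 span, and H3K18bu 12.1% and 10.0%.

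In the other 7 large clusters with a coding gene at most 43.4% of the regions overlapped H4K12bu of both replicates. GAS7, an F-BAR protein of the cytoskeleton, held 51 of the 56 regions of a cluster at chr17:9890035-10157281, and its own start site lay outside the cluster. H3K18bu covered 9.55% and 8.81% of that span and H4K12bu 5.85% and 4.04%. KSR1, a scaffold of the RAF-MEK-ERK cascade, held 27 of 53 regions at chr17:27319895-27586546, with its start site inside; H4K12bu covered 7.72% and 4.25% and H3K18bu 11.2% and 9.35%. PRICKLE2, a planar cell polarity protein, contained a whole cluster of 52 regions at chr3:64133089-64399681, of which 17 overlapped H4K12bu of both replicates. CMIP, a signalling adaptor, likewise contained all 49 regions of a cluster at chr16:81455822-81655372, of which 20 overlapped H4K12bu. RALGPS1, an exchange factor for Ral GTPases, held the 45 regions of chr9:127051717-127204287, and 7 of them also lay over ANGPTL2, which codes for a secreted angiopoietin-like protein on the other strand. The cluster of TG and SLA on chromosome 8 had 51 regions, with 42 over TG, the thyroglobulin gene, and 13 over SLA, an adaptor of immune cells; SLA lies inside TG, so the counts overlap.

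A cluster of 49 regions at chr12:52146856-52331290 covered 5 keratin genes and their 5 start sites, and no cluster held more coding starts. KRT86 held 16 of its regions, KRT80 8, KRT7 3, KRT81 2 and KRT83 1. KRT7 is a keratin of simple epithelia, and KRT81, KRT83 and KRT86 are hair keratins whose near-identical sequences could have split reads between copies. H3K18bu covered 11.0% and 9.75% of the keratin span and H4K12bu 7.08% and 3.81%. GPC1, a cell-surface heparan sulfate proteoglycan, lay in a cluster of 41 regions and 253240 bp, among the 5 longest, but held 6 of them; most of that cluster was outside coding genes.

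**Figure D2:**
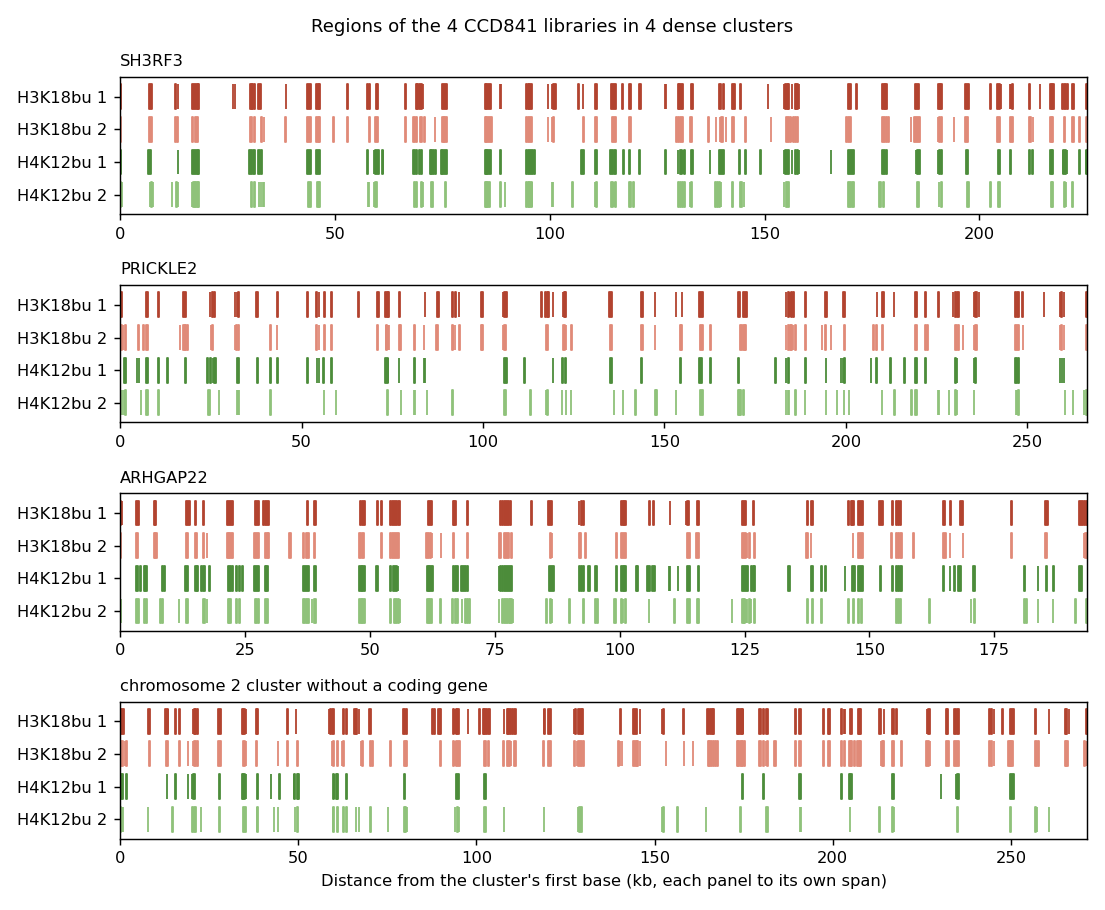
Each row draws the merged regions of 1 library along a dense cluster, with distance from the cluster's first base in kb on the x axis; red rows are H3K18bu replicates 1 and 2, green rows H4K12bu. H4K12bu covers 13.1% and 8.09% of SH3RF3 and 15.6% and 9.09% of ARHGAP22 in replicates 1 and 2, and 5.75% and 3.98% of PRICKLE2 and 4.42% and 3.74% of the chromosome 2 cluster without a coding gene.

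Clusters differed widely in H4K12bu. The share of a cluster's regions that overlapped H4K12bu of both replicates had a median of 38.5% and ran from 0% to 100%. Among clusters of 20 or more regions, ADAMTS2, which cleaves the propeptide of procollagens, had 19 of 22 regions with H4K12bu. SPIDR, a scaffold of homologous recombination, had 17 of 20, and PHF2, a JmjC-domain histone demethylase, had 17 of 21. In PHF2 the H4K12bu libraries covered 20.0% and 12.4% of the span and the H3K18bu libraries 10.7% and 9.96%, so H4K12bu was the wider mark there in both replicates. The lowest shares were 2 of 30 regions in a cluster that ends at the start of COPS8, a subunit of the COP9 signalosome, and 1 of 21 and 1 of 22 in clusters without a coding gene at chr6:163620231-163717128 and chr5:173750697-173860782. H4K12bu covered 1.23% and 1.57% of the COPS8 cluster, no more than the 1.96% and 1.60% of the genome outside clusters, while H3K18bu covered 8.94% and 7.22%.

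Over all clusters, 7537 of 19175 members (39.3%) overlapped an H4K12bu region of both replicates, against 29777 of 89361 other H3K18bu regions (33.3%), a difference of 5.98 percentage points. It was 3.25 points with q below 0.01 in every list, and 2.58 and 1.66 points when the regions of H3K18bu replicate 2 or replicate 1 alone were clustered. The difference was 8.39 points with H4K12bu replicate 1 (59.7% against 51.3%) and 4.40 points with replicate 2 (50.0% against 45.6%), a mean of 6.40 ± 2.82 (SD, n = 2). It had the same sign in both libraries, and since regions of the same libraries are not replicates, no test of it was made. It was also positive within each of 4 classes of equal size by the lower −log10 p of the H3K18bu replicates, at 3.21, 2.83, 1.98 and 4.65 points from the weakest to the strongest class. With H4K12bu replicate 1 alone these differences were 5.36, 5.83, 5.30 and 5.55 points, and with replicate 2 alone 2.64, 0.713, 1.20 and 2.73. By place the difference was 5.02 points in exons, 4.63 in introns, 5.23 between genes and 4.54 within 1 kb of a start site, and each of these was positive in both replicates alone. With set size the share was not a steady climb: it was 35.2% for single regions, 32.3% in sets of 2 to 4, 33.5% in sets of 5 to 9, 38.2% in clusters of 10 to 19 and 42.5% in clusters of 20 or more. H4K12bu replicate 1 alone gave 51.9%, 50.3%, 52.5%, 58.5% and 63.2% for these sets, and replicate 2 alone 47.7%, 44.4%, 45.9%, 49.0% and 53.0%. At the limit it was 33.3% in sets of 9 and 37.2% in sets of 10.

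The local background, the level that MACS2 expected from the reads around a peak, rose with set size at every step. In H3K18bu replicate 1 its median was 1.74 read ends for single regions, 2.38 in sets of 2 to 4 and 5.06 in clusters of 20 or more. In replicate 2 it was 1.37, 1.85 and 4.00. Between single regions and sets of 2 to 4 the H4K12bu overlap fell instead, from 35.2% to 32.3%. H4K12bu regions inside cluster spans had a median background of 4.19 in replicate 1 and 1.69 in replicate 2, against 2.70 and 1.02 outside. The part of this background in the overlap of the marks was not tested.

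**Figure D3:**
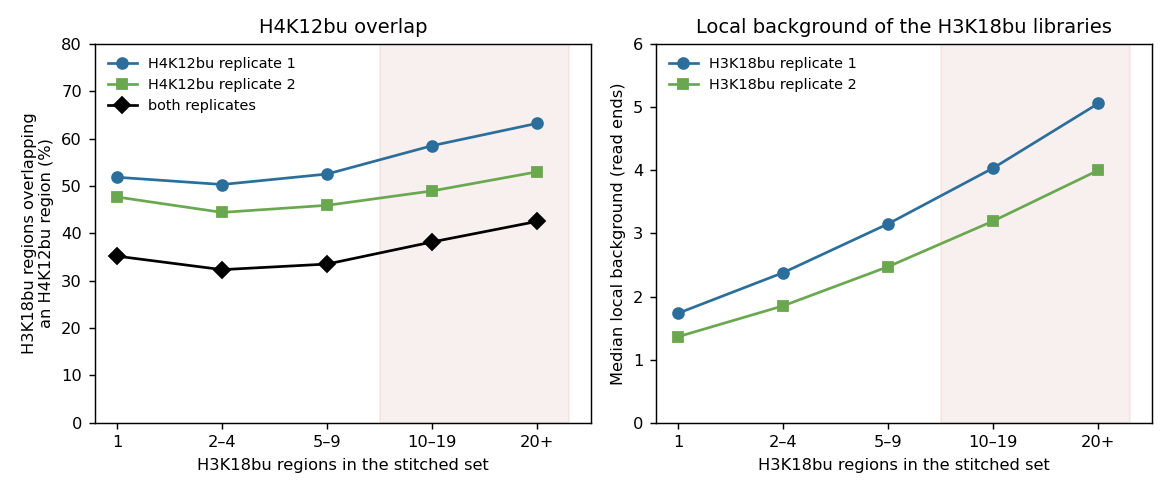
Left, the percentage of H3K18bu regions that overlap an H4K12bu region is plotted by size of the stitched set, for each H4K12bu replicate and for both; right, the median local background in read ends of the 2 H3K18bu libraries is plotted for the same sets, with clusters shaded. Overlap dips from 35.2% to 32.3% and then climbs to 42.5% in both replicates together, and the background climbs at every step.

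H4K12bu was denser in the cluster spans, under the members and between them. The spans held 10126 of 90476 H4K12bu regions of both replicates (11.2%), 108 per Mb against 28.3 per Mb elsewhere, and 2478 of them (24.5%) did not touch a member. Between the members this was 29.4 per Mb. Elsewhere, H4K12bu regions that touched no H3K18bu region of both replicates were 62.4% of the H4K12bu regions there and 17.9 per Mb. H3K18bu peaks of a single replicate were not excluded from either count, so these places are not shown to lack H3K18bu. At least 1 H4K12bu region of both replicates was found in 1275 of the 1309 clusters (97.4%). H4K12bu replicate 1 covered 6.90% of the spans and 1.96% of the rest, and replicate 2 covered 4.20% and 1.60%, so the excess was smaller in replicate 2, the library with the lower pileup. For scale, the H3K18bu libraries that define the clusters covered 9.85% and 8.65% of the spans against 1.92% and 1.79% of the rest. Since the marks overlap outside clusters too, part of the H4K12bu excess follows from that choice, and how large a part was not tested. Stitching the H4K12bu regions by the same rule gave 1048 clusters of 15607 regions. Of the H3K18bu clusters 330 (25.2%) overlapped an H4K12bu cluster, and of the H4K12bu clusters 327 (31.2%) overlapped an H3K18bu cluster. Among H3K18bu clusters of 20 or more regions the share was 46.2%, and among those of 10 to 19 it was 21.7%; longer spans also have more room to overlap.

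Moving the data along the chromosomes gave a scale for these values. The spans of all clusters were moved 20 times in steps of 5 Mb, each chromosome closed to a circle. H4K12bu of both replicates then covered 1.29% to 1.64% of the spans, with a median of 1.40%, against 4.97% in place. By replicate the moved spans had 1.93% to 2.38% for H4K12bu replicate 1 and 1.56% to 1.85% for replicate 2, below the 6.90% and 4.20% in place. When H3K18bu replicate 2 was moved against replicate 1 in the same steps, 7867 to 8426 regions had a peak from both, against 108536 in place. So few shared regions leave little room for sets of 10, and the 0 or 1 cluster found after a move follows from that. Such moves break the match to H3K18bu, genes, base composition and mappable sequence together, and they are a description with no p.

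**Figure D4:**
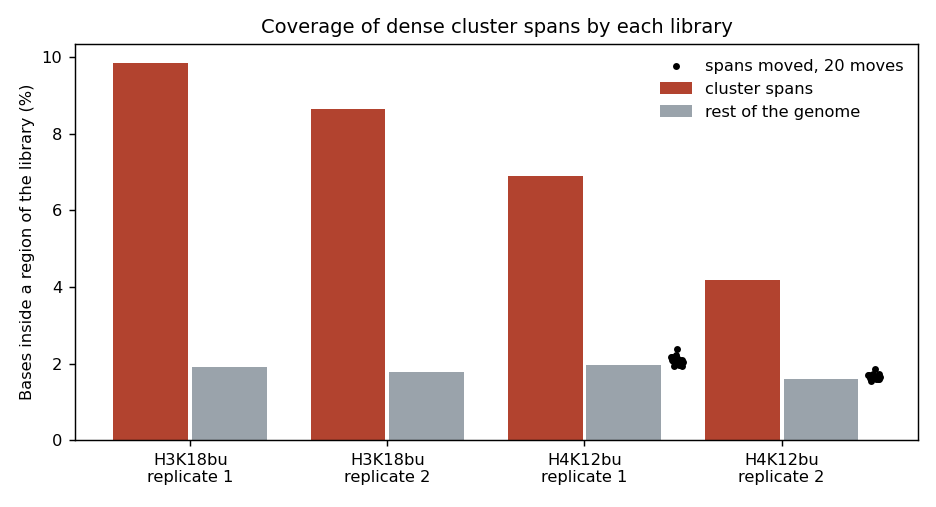
Bars give the percentage of bases inside a region of each CCD841 library, red for the dense cluster spans and grey for the rest of the genome; black points are the same H4K12bu value after each of 20 moves of the spans. The H3K18bu bars are high by the choice of members, and both H4K12bu bars, 6.90% and 4.20%, stand above all of their moved values, of which the highest are 2.38% and 1.85%. Part of the H4K12bu excess follows from the same choice, since the marks overlap.

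Pileup, p and fold ranked the members differently. Their median pileup was higher, 22 and 17 in H3K18bu replicates 1 and 2 against 16 and 13 for other regions, and their median −log10 p was 9.04 and 7.59 against 8.44 and 7.0. Their median fold over the local background was lower, 4.23 and 4.09 against 4.68 and 4.42, beside the raised background above. Since these are the values of the libraries that chose the members, they are given as a description. The 5 strongest members by the lower −log10 p, named after their values were seen, lay in introns of the noncoding gene LINC00545, of RAD18 (a ubiquitin ligase of DNA damage tolerance), of KCNMA1 (a calcium-activated potassium channel) and of EGFR, and in an exon of SUSD1. All 5 overlapped H4K12bu in both replicates, as did 62.8% of members and 58.2% of other regions in the strongest of the 4 classes by p. The EGFR region, chr7:55132662-55133480, had an H3K18bu pileup of 134 and 129 in replicates 1 and 2, and its H4K12bu pileup was 78 and 24.

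The places of members in the annotation differed from those of other regions. Of the members 65.3% were intronic and 5.56% lay within 1 kb of a start site, against 52.4% and 11.0% of other regions. The exonic share was 8.09% against 8.67%, and the intergenic share 21.0% against 28.0%. Median GC content in the 300 bases around the region was 52.3% against 51.0%, and at 5 kb away 45.0% against 42.0%, so the surroundings of members were also richer in GC. TGANTCA (AP-1, both strands, the same read either way) was found in 16.3% of member windows, 15.0% of other windows and 15.3% of all windows. At 5 kb away it was found in 9.29% and 9.14%. GGAATG, the TEAD core, was found in 20.5% against 19.6%, CCNCNCCC, a KLF core, in 35.7% against 34.0%, and GTCTAGAC, a SMAD palindrome, in 0.297% against 0.319%, each on both strands. In windows 5 kb from members these shares were 17.0%, 23.6% and 0.162%, and 5 kb from other regions 15.9%, 20.0% and 0.144%. With a median gap of 4686 bp in clusters, a window 5 kb from a member can fall on another member. For each of the 4 motifs the difference between members and other regions was smaller than that between members and windows 5 kb away.

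Few coding genes had their start in a cluster. The cluster spans held the start site of 484 of 20033 protein-coding genes (2.42%), and 358 clusters (27.3%) held at least 1. The 20 moves of the spans held 522 to 769 start sites with a median of 610.5, so fewer starts were counted in place than in any move. A member over the gene body or the 1 kb before its start was found for 1140 genes (5.69%). Gene length moved with this share: it was 1.48% of genes under 10 kb, 3.18% of those of 10 to 50 kb, 5.85% of those of 50 to 100 kb, 14.5% of those of 100 to 300 kb and 25.5% of those of 300 kb or more. The median length was 27.5 kb over all genes and 116 kb over genes with a member. A total of 530 clusters (40.5%) lay inside a single coding gene, 612 genes had 10 or more members and 167 had 20 or more. The genes with the most members, listed after their values were seen, were CDH4 with 94, PTPRM with 88, SH3RF3 with 83, ASTN2 with 78 and KIRREL3 with 70. ASTN2 had 27 H4K12bu regions and KIRREL3, a nephrin-like adhesion protein, had 81, although ASTN2 is the longer gene at 992 kb against 580 kb.

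**Figure D5:**
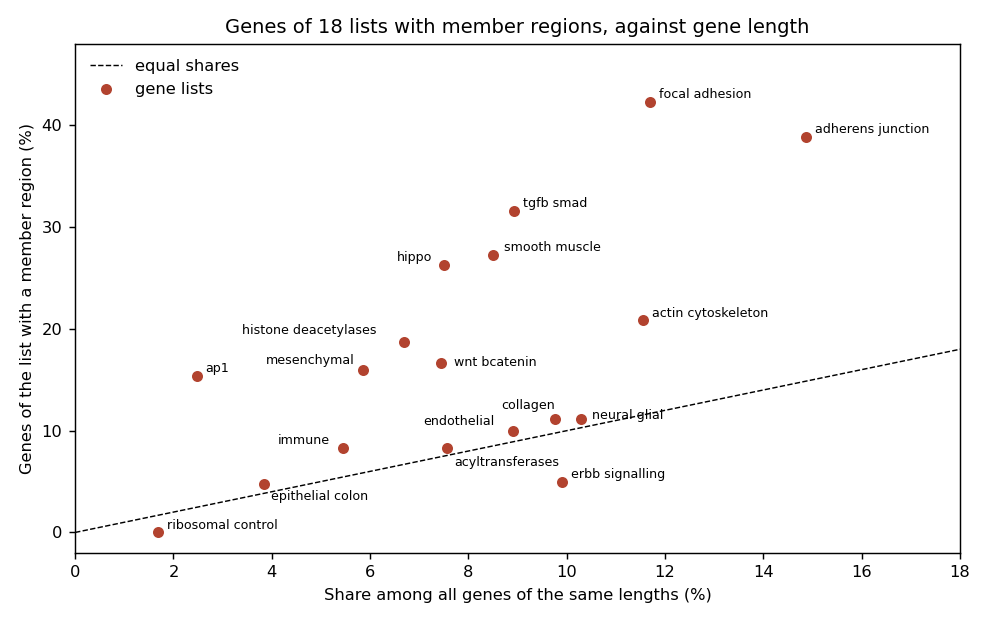
For each of 18 gene lists (red points) the percentage of genes with a member region is plotted against the percentage among all coding genes of the same lengths, and the dashed line marks equal shares. Focal adhesion (42.3% against 11.7%) and adherens junction (38.9% against 14.9%) lie highest, and the ERBB list (5.00% against 9.91%) and ribosomal genes (0% against 1.69%) lie below the line.

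Of the 18 lists examined, those of cell adhesion had the highest share of genes with a member, and their genes are also among the longest. Their rank is that of the raw share. As a ratio to the share by length, several shorter-gene lists stood above adherens junction. The AP-1 list (15.4% against 2.47%, with 2 genes) also stood above focal adhesion (42.3% against 11.7%) by that ratio. The lists were chosen with earlier results of these data known, and each share is set beside the share by length, the mean over the genes of a list of the share in the length class of each. No share was tested, and most lists have fewer than 7 genes with a member. For focal adhesion, the integrin complexes that anchor actin to the matrix, 11 of 26 genes had a member (42.3%), against 11.7% by length. TNS3 and TNS1, tensins that bind integrin tails and actin, had 46 and 25 members. TLN2, a talin, and LPP, a LIM protein of adhesion sites, had 34 each, although LPP had 90 H3K18bu regions in all. LIMS1, a partner of integrin-linked kinase, had all 27 of its regions in a single cluster. FLNA and ILK had no H3K18bu region of both replicates. For adherens junctions, the cadherin contacts between cells, 7 of 18 genes had a member (38.9%), against 14.9% by length. CDH4, a classical cadherin, had 94 members in 6 clusters, PTPRM, a receptor phosphatase found at cadherin contacts, had 88 in 6, and CDH2 (N-cadherin) had 21 in 2. NECTIN1, an adhesion receptor, had 18 and PARD3, a polarity scaffold, 13. Of the actin cytoskeleton genes 5 of 24 had a member (20.8%, against 11.5% by length), led by PALLD, a protein of stress fibers, with 13. Of collagen genes 2 of 18 did (11.1%, against 9.77% by length), with 22 members in COL15A1 and 16 in COL4A2.

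In TGF-β and SMAD signalling 6 of 19 genes had a member (31.6%, against 8.92% by length). LTBP2, of the family of latent TGF-β binding proteins, had 18 members, the receptor-activated SMAD3 had 14, and TGFBR3, TGFB2 and SMAD6, a co-receptor, a ligand and an inhibitory SMAD, had 10 each. In the Hippo pathway 5 of 19 genes had a member (26.3%, against 7.51% by length): TEAD1, the DNA-binding partner of YAP, with 15, VGLL4, which competes with YAP for TEAD, with 13, LIMD1 with 10, ANKRD1 with 2 and AMOTL2 with 1. In Wnt and β-catenin signalling 4 of 24 did (16.7%, against 7.45% by length): the TCF factors TCF7L1 and TCF7 with 12 and 7, the ligand WNT5B with 8 and β-catenin itself, CTNNB1, with 1. Of the ERBB list 1 of 20 genes had a member (5.00%), below the 9.91% by length. That gene was EGFR, with all 29 of its H3K18bu regions in 2 clusters and its start site inside a cluster. Among AP-1 genes 2 of 13 had a member (15.4%, against 2.47% by length): FOSL2 with 4 and BATF3 with 1. FOS, FOSB, FOSL1, JUN, JUNB and JUND, and the longer ATF3, BATF and MAFF, had none.

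Of the enzymes that remove acyl groups, 3 of 16 deacetylase genes had a member (18.8%, against 6.70% by length): HDAC4 with 20, HDAC11 with 6 and HDAC7 with 1. HDAC9 had 30 H3K18bu regions over 915 kb, and none of them was a member. HDAC1 had no region of both replicates. Of the acyltransferases 1 of 12 had a member (8.33%, against 7.56% by length), KAT6B with 11. Of 16 ribosomal protein genes, which are short and active in every cell, 0 had a member, against 1.69% by length.

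The label of the line was checked against marker genes. Of the epithelial colon markers 13 of 21 (61.9%) had an H3K18bu region of both replicates over the gene, next to 62.3% of all coding genes and 57.5% by length. KRT8, a keratin of simple epithelia, and CDH17, an intestinal cadherin, had 7 each, HNF4A and VIL1 5 each, and CDH1 (E-cadherin) and EPCAM 3 each. KRT18, KRT19 and KRT20, CDX2, CLDN3, CLDN7, ESRP1 and ESRP2 had none. Within 1 kb of the start site 2 of 21 (9.52%) had a region, OCLN and VIL1, against 31.3% of all coding genes. Of the mesenchymal markers 23 of 25 (92.0%, against 67.4% by length) had a region over the gene, and POSTN and THY1 had none. At the start site 9 of 25 had one (36.0%), near the share of all genes: COL1A2, FN1, SPARC, FAP, SNAI2, COL6A3, S100A4, TGFBI and TWIST2 had one, and VIM, COL1A1, COL3A1, PDGFRA and ZEB1 were among those without. Start-site regions were also present for 4 of 12 immune markers, 3 of 10 endothelial, 2 of 11 smooth muscle and 2 of 9 neural and glial markers, so such a region is not by itself specific to a cell type. Over the gene, 10 of 11 smooth muscle markers had a region (90.9%, against 72.9% by length). So did 8 of 10 endothelial markers, against 71.9% by length. It was 8 of 12 for immune markers (66.7% against 66.9%) and 6 of 9 for neural and glial markers (66.7% against 66.6%). A high share over the gene was thus not particular to the mesenchymal list. These values do not settle the cell type, and expression was not measured in these libraries.

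Members lay in few of the marker genes. They were found in 1 of 21 epithelial genes (4.76%, against 3.84% by length), CDX1 with 3. They were found in 4 of 25 mesenchymal genes (16.0%, against 5.85% by length), CDH2 with 21, ZEB2 with 16, TWIST2 with 9 and TGFBI with 5. Of 11 smooth muscle genes 3 had members (27.3%, against 8.5% by length), MYLK with 21, SYNPO2 with 11 and CALD1 with 7. It was 1 of 10 for endothelial markers (10.0% against 8.91%; TEK with 10), 1 of 12 for immune markers (8.33% against 5.45%; CSF1R with 7) and 1 of 9 for neural and glial markers (11.1% against 10.3%; SOX10 with 2). These lists are short, and 1 gene makes up the whole count in 4 of the 6.

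The study followed MYC and FOSL1, and reported lower binding of the butyryl marks at them in the normal line than in colorectal cancer cells. No library of cancer cells was used here, so peaks in CCD841 alone do not bear on that comparison. MYC, a proto-oncogene and Wnt target, had no H3K18bu region of both replicates over its body, and 1 H4K12bu region of both replicates over the body or the 1 kb before it. The cluster nearest to MYC, of 10 regions and without a coding gene, was 12.9 kb away. A larger cluster of 29 regions over the noncoding gene PVT1 began 84.3 kb from MYC, and 19 of its regions (65.5%) overlapped H4K12bu of both replicates. FOSL1, an AP-1 subunit, had 1 H3K18bu region, in a set of 5, and 1 H4K12bu region of both replicates. Its nearest cluster was 1133 kb away.

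Clusters without a coding gene lay a median of 68.4 kb from the nearest one. Besides the chromosome 2 cluster of 66 regions, the largest were 43 regions at chr2:8513755-8660389, 18.5 kb from ID2, an inhibitor of helix-loop-helix factors, and 34 regions at chr2:120430176-120580089, 78.4 kb from INHBB, an inhibin subunit. H4K12bu of both replicates overlapped 7 of the 43 regions near ID2 and 8 of the 34 near INHBB. The share was higher in a cluster over CYTOR, a noncoding RNA gene, with 16 of 27 regions, and in a cluster 5.03 kb from TNS3, with 15 of 26. Being near a gene does not assign a cluster to it.

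Chromosomes differed in how much of their H3K18bu lay in clusters. Members were 24.0% of the regions on chromosome 10, 23.7% on chromosome 11 and 21.0% on chromosome 2. Among chromosomes with a cluster the lowest shares were 2.99% on chromosome X, with 3 clusters, and 3.64% on chromosome 19, with 4 clusters. Chromosome Y held 4 regions and no cluster. Chromosome X also had few regions to cluster, 10.8 per Mb, and the lowest median background among the chromosomes with a cluster, 1.79 and 1.39 read ends in the H3K18bu replicates. Chromosome 19 had 28.2 regions per Mb, close to the 29.9 of chromosome 4, where 10.4% of regions were members.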

How the data were processed

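CUT&Tag peaks of the 4 NaBu-treated CCD841 libraries were used, and the 8 mouse libraries of the series were left out. Per the study's methods the authors ran an ENCODE pipeline on GRCh38.p13; the submitters' processing notes name cutadapt 1.9.1, Bowtie2 2.3.1, MACS2 2.1.0 and bcl2fastq 2.17.1. The authors called peaks for each library without pooling and without a control, at p below 0.01 and at most 300000 peaks. The deposited fold ratio compares the summit with the reads around it in the same library, and the deposited −log10 p and −log10 q come from the same Poisson test. The deposited summit position is another column used. The lists hold no counts, so no count model was fitted; the study's methods give an average depth over samples, and the depth of each library is unknown here.

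Pileup and background were solved from fold and p, and at least 99.9997% of peaks gave a whole number that matched the listed p to 0.01 on the −log10 scale. No peak lay past a chromosome end of the reference used. Overlap meant at least 1 bp. Genes were those of GENCODE 44 on GRCh38. Interval steps were tested on simulated data against bedtools 2.31.1, and the solver on simulated peaks of known pileup. Python 3.11.15, numpy 2.4.6, pandas 2.3.3, scipy 1.17.1 and pysam 0.24.0 were used.

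Members, gene lists, motifs and the rule for named clusters and genes were chosen with earlier results of these data known. The rule named the 10 clusters with the most regions and the 5 longest. Among clusters of 20 or more regions it named the 3 highest and 3 lowest in H4K12bu share. It also named up to 5 genes with a member from each list, and MYC and FOSL1. Genes without a member, marker genes given by region, and further clusters and genes were named outside this rule, as examples. Sequence windows were taken from the 5 clusters with the most regions off chromosome 8, and 1 of them is not reported here. Alternatives were a gap of 5 kb, at least 20 regions, q below 0.01, the 150000 strongest peaks of each library, a stricter overlap, H4K12bu in either replicate, moves over bases other than N, and leaving out each replicate. Comparisons are shares over regions, and no p was computed.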

Additional observations from a re-analysis of the deposited data

How the results depend on the processing

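The number and size of clusters depended on the settings, which set how dense a set must be. The 1309 clusters became 12 with a gap of 5 kb, 186 with at least 20 regions and 154 with the 150000 strongest peaks of each list. Member regions, 19175, became 138, 4921 and 1930, and coding genes with a start in a cluster, 484, became 2, 104 and 39. With the regions of 1 H3K18bu replicate alone there were 5617 and 6190 clusters, 110103 and 120794 members and 3069 and 3499 genes, since regions no longer had to be shared. An overlap of at least 50% of the shorter region gave 1230 clusters. A limit of q below 0.01 could not change these counts, since 100% of the peaks in both H3K18bu lists already met it. The difference in H4K12bu overlap stayed positive under every alternative run: 14.9 points with a gap of 5 kb, over just 138 members, 1.66 and 2.58 with each H3K18bu replicate alone, 8.39 and 4.40 with H4K12bu replicate 1 or 2 alone, 3.25 with q below 0.01 in every list, and 6.01 to 8.54 under the others. H4K12bu coverage exceeded its median over moved spans by 3.57 points, 3.51 over bases other than N, and 2.54 and 4.82 with each H4K12bu replicate alone. No paired analysis was made, since the results compare regions and spans and come from no test between groups of libraries. Peak lists ended at a limit on rows, so weak regions are missing to a different depth in each library, and the part of H4K12bu replicate 2 (median pileup 7) in the overlap was not tested beyond leaving it out.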

Other observations

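The cluster with the highest covered share, named after its values were seen, had 29 regions, 11 of them over GPRIN2, that covered 20.0% of its 70050 bp, and 17 of the 29 overlapped H4K12bu of both replicates. MAPKAP1, a subunit of the mTORC2 kinase complex, followed with 10 regions over 18.6% of 25241 bp, the shortest span of all clusters, and ADCY1, an adenylate cyclase, with 10 regions over 18.6% of 34265 bp. A cluster of 29 regions at chr7:142445044-142557070 covered variable segments of the T cell receptor beta locus, and 16 of its regions overlapped H4K12bu. Segments of that locus resemble each other, and how uniquely reads map there was not analysed.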
